A study of Mus musculus with 4 samples.

Results

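The genes examined were 10 markers of alveolar type I cells, Aqp5, Pdpn, Ager, Hopx, Cav1, Cav2, Rtkn2, Emp2, Gprc5a and Clic5, out of 18193 genes named on the arrays. They were taken by symbol, with every probe set annotated to them. RNA came from fetal lung of E18.5 mouse embryos, an age shortly before birth. One group was wild type BALB/c. The other was labelled BALB/c with null alleles of both Myf5 and Myod1 (Myf5-/-:MyoD-/-), transcription factors without which skeletal muscle does not form, so that such embryos lack the fetal breathing movements muscle would drive. The labels call both alleles null and name no Cre or promoter. The title of the series gives its question as the part played by skeletal muscle in the development of the lung. Biotin-labelled cRNA made from 6 µg of total RNA was read on 2 Affymetrix designs, MOE430A and MOE430B, which carry largely different probe sets. Each genotype had 1 array on each design, 4 arrays in all and none repeated. The genotypes could therefore not be tested against each other, and every value below compares 1 array with another. The labels do not tell if an array read 1 embryo or a pool, or if both arrays of a genotype read the same RNA.

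Type I cells are the thin, flat epithelial cells that cover most of the gas exchange surface of the lung. They arise from distal tip progenitors late in gestation, alongside the cuboidal type II cells that make surfactant. They flatten and spread against the capillaries as fluid and breathing movements distend the future airspaces, and the coactivators YAP and TAZ, with NKX2-1, are known to support their fate. Their markers include membrane channels, surface glycoproteins and receptors, proteins of caveolae and a homeodomain protein. Several of these genes are made by other cells too. Caveolins are abundant in endothelium and muscle, podoplanin in lymphatic endothelium and mesothelium, and Hopx in the heart.

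A signal is the MAS5 intensity of a probe set, a group of short probes against 1 transcript. The signals of a probe set are given in the order wild type, then the array labelled double knockout, the latter divided by 1 factor per design (1.0038 and 1.0076) that set the median ratio to 1. A log2 ratio above 0 means a higher signal in the array labelled double knockout. A probe set counted as measured when its higher signal reached the median signal, 789.2 for MOE430A and 858.2 for MOE430B. The floor, below which a signal gave only a bound, was the 25th percentile, 284.5 and 279.1. Levels are compared only within a probe set, since probes differ in brightness and the designs are not on 1 scale.

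Several facts of the series bear on the direction of every ratio. The targeted genes did not settle the labels. The Myf5 probe set read 110.5 and 8.944, both below the floor, and the Myod1 probe set on MOE430A read 85.00 and 1081, higher under the double knockout label. A Myod1 probe set on MOE430B, below the filter, read 337.2 and 607.2. The place of these probe sets relative to the deleted parts is unknown here, and one outside them would check nothing. Xist, the RNA of the inactive X chromosome, read 7600.0 and 2749 by its brightest probe set, and since the labels give no sex, sex and genotype cannot be told apart. Of 12 markers of lymphocytes and thymus, 9 were measured, and these read at least 2-fold lower in the array with the double knockout label, as did 456 of all 12545 genes measured. Their summed signal was 28936 and 3141. Each of the 9 passed the filter only through the wild type array, so that a lower value was partly set by the filter. Markers of squamous epithelium, which lines the oesophagus and upper airway, read higher in the 4 measured of 6, each of which passed only through the array with the double knockout label, with Krt4, a keratin of that epithelium, at 117.0 and 2525, at least 8.88-fold. The squamous markers summed to 894.0 and 4498 for the 3 on MOE430A, and to 491.1 and 865.6 for the 1 on MOE430B. The part of these tissues in the ratios below was not tested.

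As a group, the type I genes had ratios centred near 1 in these arrays. Of 18 probe sets, 16 were measured, and 9 of the 10 genes had at least 1 of them. With 1 probe set per gene, 4 of 9 genes had a ratio above 1, where 49.3% of all 12545 genes measured did, and the median log2 ratio was -0.063, against -0.0075 for all genes. Cav1 alone was at least 1.5-fold higher (1 of 9, against 9.37% of genes), 0 of 9 genes was at least 1.5-fold lower (against 9.44%), and 0 of 16 probe sets differed by 2-fold or more, which 3.84% did on MOE430A and 17.7% on MOE430B. Among single probe sets, Cav1 and 1 of the 4 of Clic5 passed 1.5-fold, 2 of 16, where 13.7% of probe sets did on MOE430A and 34.1% on MOE430B. All these shares cover every measured gene or probe set down to the filter. Of the 16 type I probe sets, 15 had both signals above the 75th percentile of their design. The shares are thus not those at like brightness, and the part of brightness in these counts was not tested. The shares of all genes, 49.3%, 9.37% and 9.44%, are also those to set beside the counts of the lists below. In bulk lung RNA, fewer cells of a type and less RNA per cell cannot be told apart.

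In place of a replicate error, the ratios were set against 3 spreads. With 1 array per genotype and design, none of the 3 measures the variation between embryos of a genotype. The SD of a single log2 ratio was 0.24 by the 100 probe sets that the designs share. Between measured probe sets of the same gene it was 0.37 on MOE430A and 0.71 on MOE430B. The third was the central 95% of the log2 ratios of all measured probe sets in the same decile of signal on the same design. All 16 member probe sets lay inside that last range, with log2 ratios from -0.59 to 0.63. For the 6 on MOE430B, all in its brightest decile, the range ran from -0.71 to 0.61, short of 2-fold on both sides.

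**Figure D1:**
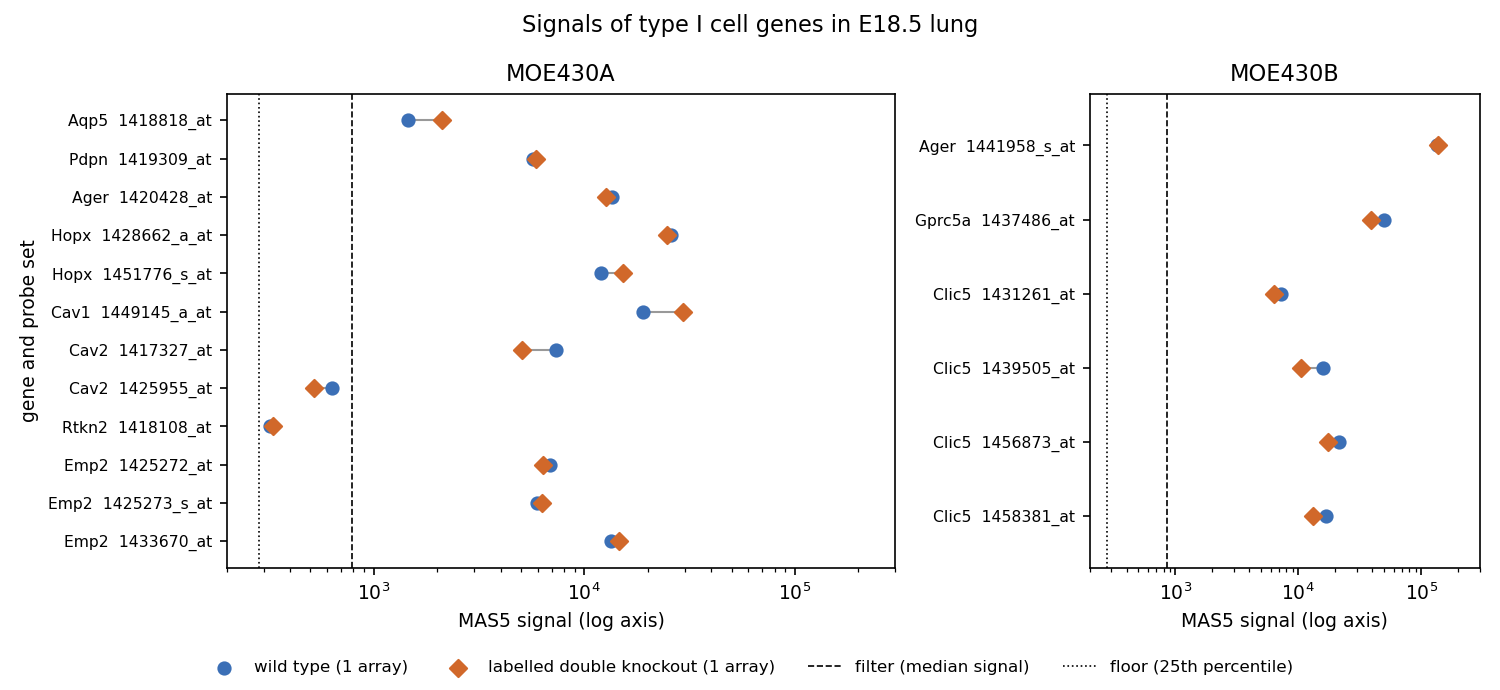
MAS5 signals (log axis) of the 18 probe sets of the type I genes on MOE430A and MOE430B, 1 point per array, with the filter and the floor of each design. The signals of Cav1, Aqp5 and Cav2 are visibly apart between the genotypes, those of Pdpn and Ager nearly coincide, and Rtkn2 and the second Cav2 probe set lie below the filter.

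Among the membrane channels, Aqp5 read higher and Clic5 lower in the arrays labelled double knockout. Aqp5, the water channel of the apical membrane of type I cells, was read by a single probe set on MOE430A, at 1459 and 2101. This was 1.44-fold higher, a log2 ratio of 0.53, about as far from 0 as the ratio of Cav2 on the other side. Of the 1218 probe sets of like signal, 94.0% had a lower ratio, and their central 95% ran from -0.72 to 0.69. The ratio of Aqp5 stayed between 0.51 and 0.55 under the 11 alternative settings that gave one. Those of floor, choice of probe set and design could not change it, since it had a single probe set well above the floor. With quantile normalization it was 0.55 and with a loess curve removed 0.53.

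Clic5, a chloride intracellular channel protein that binds the actin cortex through ezrin, had 4 probe sets, all on MOE430B. They read 21282 and 17487, 16724 and 13229, 15965 and 10610.2, and 7284 and 6322. All 4 were lower in the array with the double knockout label, at log2 ratios of -0.28, -0.34, -0.59 and -0.20. The third reached 1.5-fold and the others were lower by between 1.15-fold and 1.26-fold. Of 98 genes with 4 measured probe sets on that design, 11 (11.2%) also had all 4 below 1. The spread of 0.39 between the highest and lowest of the Clic5 ratios was narrower than the median spread of 0.65 for genes with several probe sets on MOE430B. The brightest decile of that design, which held all 4, itself had a median log2 ratio of -0.11.

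Among the surface proteins, Pdpn and Ager differed by little and Gprc5a was lower. Pdpn, or podoplanin, the mucin-like glycoprotein first described on type I cells as T1-alpha, read 5700.4 and 5913, a log2 ratio of 0.053. Lymphatic endothelium and mesothelium also carry it. Of 5 measured lymphatic markers 1 was higher (median -0.19), and of 5 mesothelial markers 3 were higher (median 0.031). Prox1, 1 of the lymphatic markers, passed the filter only through the wild type array.

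Ager, the receptor for advanced glycation end products a highly selective marker of type I cells in the adult lung, was measured on both designs. Its probe set on MOE430A read 13582 and 12742, and the one on MOE430B, which may cross-hybridise, read 133872 and 137831. Its log2 ratios were -0.092 and 0.042, on opposite sides of 0 and less than 1 SD (0.24) from it. Gprc5a, a retinoic acid-induced orphan receptor, had 1 probe set, on MOE430B, with signals of 49903 and 38873. It was 1.28-fold lower, a log2 ratio of -0.36, and 17.2% of the 1287 probe sets of like signal were lower still.

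The caveolins showed the widest difference within the group. Cav1, the main coat protein of caveolae, flask-shaped pits of the plasma membrane, read 18939.6 and 29276 on MOE430A. This was 1.55-fold higher, a log2 ratio of 0.63 at the upper edge of the range for its decile of signal (-0.52 to 0.63), with 97.4% of the 1219 probe sets there lower. The median of that decile was 0.078. The ratio of Cav1 rested on a single probe set whose name marks it as shared between transcripts. With quantile normalization its ratio was 0.54 and with a loess curve removed 0.50, both short of 1.5-fold, and Cav1 had no value once shared probe sets were left out. Cav2, which needs Cav1 to reach the plasma membrane and assembles with it, went the other way. Its measured probe set read 7363 and 5078, 1.45-fold lower, with a log2 ratio of -0.54. The second Cav2 probe set, below the filter, read 631.3 and 521.6, also lower. The log2 ratios of Cav1 and Cav2 thus differed by 1.16, where the difference of the ratios of a pair of probe sets of 1 gene had an SD of 0.52 on that design. Cav1 and Cav2 are the highest and lowest of the 9 genes, so this gap is the full range of the group, and with 1 array per genotype it could not be tested.

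Cav1 and Cav2 are neighbours in the RefSeq gene order, with no protein-coding gene between them, and both are read from the + strand. The upstream sequences of the 3 genes with the largest ratios in either direction, Aqp5, Cav1 and Cav2, are shown to set the base composition around the starts of the neighbouring caveolins beside that of Aqp5. Each is the 250 bases before the start of the gene in RefSeq (assembly GRCm38.p6), from 5′ to 3′ on the strand of the gene, with capitals marking CpG dinucleotides. For Cav1 the first of 2 listed starts is shown.
Aqp5 (chr15:99590778-99591027, + strand): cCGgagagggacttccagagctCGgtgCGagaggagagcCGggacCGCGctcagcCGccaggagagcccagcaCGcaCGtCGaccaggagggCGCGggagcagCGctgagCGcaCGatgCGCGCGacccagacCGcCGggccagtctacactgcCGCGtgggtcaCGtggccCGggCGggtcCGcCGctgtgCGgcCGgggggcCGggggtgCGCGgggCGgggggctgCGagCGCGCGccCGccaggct
Cav1 (chr6:17306085-17306334, + strand): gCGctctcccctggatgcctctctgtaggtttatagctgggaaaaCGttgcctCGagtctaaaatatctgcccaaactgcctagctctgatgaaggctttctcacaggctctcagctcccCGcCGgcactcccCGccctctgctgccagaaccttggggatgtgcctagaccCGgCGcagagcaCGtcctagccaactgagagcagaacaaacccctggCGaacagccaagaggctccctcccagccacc
Cav2 (chr6:17280935-17281184, + strand): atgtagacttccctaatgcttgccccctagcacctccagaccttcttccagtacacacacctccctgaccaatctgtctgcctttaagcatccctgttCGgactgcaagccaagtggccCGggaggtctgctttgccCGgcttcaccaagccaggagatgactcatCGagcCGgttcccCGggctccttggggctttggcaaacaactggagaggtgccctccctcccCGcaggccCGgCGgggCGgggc
The Aqp5 window held 38 CpG and was 78.4% G or C. Those of Cav1 and Cav2 held 10 each and were 59.6% and 62.0% G or C, and the median over 32851 windows of RefSeq genes was 6 CpG and 52.4%. RefSeq windows were matched for 8 of the 10 genes, 10 windows in all, and ranged from 43.2% G or C in Pdpn to the value of Aqp5. The letters GGAATG, the core that TEAD factors, the partners of YAP and TAZ, bind, were searched on both strands. They stood in 0 of these 10 windows, and in 12.6% of all windows, which says only that the letters are not in these 250 bases.

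Other proteins of the caveolar coat were fixed as a list of 9, of which 8 were measured. Of these, 6 were higher and 2 lower, with 1 of the 6 reaching 1.5-fold and a median log2 ratio of 0.13 against -0.0075 for all genes. Cavin1, which stabilises the coat, had the highest ratio at 0.62 (5473 and 8429), but its other probe set read -0.73. Ehd2, an ATPase at the neck of caveolae, followed at 0.43, with -0.26 to 0.43 over 4 probe sets. Cavin4, the cavin of muscle cells, had -0.27 and Ehd4 -0.22. The probe sets of Cavin1 thus lay farther apart than those of Cav1 and Cav2.

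Cells other than type I cells also make caveolins. Of 12 endothelial markers 9 were higher, 1 at least 1.5-fold, where 49.3% and 9.37% of all genes were. Their median was 0.13 and their summed signal 52419 and 58493. Egfl7, an endothelial secreted factor, was highest at 0.75 (0.075 to 0.87 over 4 probe sets) and Esam, a junction protein, followed at 0.40. Pecam1, the CD31 antigen, was lowest at -0.34, with Tek, the angiopoietin receptor, at -0.24. Smooth muscle markers were higher in 6 of 6 measured genes, against 49.3% of all genes. At least 1.5-fold higher was 1 of them (Actg2, 0.64), against 9.37%, followed by Acta2 at 0.53. The lowest were Myh11 at 0.18 and Tagln at 0.22. Myh11 (741.0 and 841.9) passed the filter only through the array with the double knockout label. Its higher value was thus partly set by the filter. The smooth muscle markers had a median of 0.26 and a summed signal of 36638 and 51219.7. The part of either cell type in the Cav1 and Cav2 signals was not tested.

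Emp2, a tetraspan membrane protein abundant in type I cells that affects caveolin levels and integrin trafficking, had 3 measured probe sets on MOE430A. They read 13340.4 and 14556, 6854 and 6379.7, and 5947 and 6312. The log2 ratios of 0.13, -0.10 and 0.086 lay on both sides of 0 and spanned 0.23, less than the median span of 0.38 for genes with several probe sets on that design.

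Hopx, a homeodomain protein that does not bind DNA and marks type I cells and their precursors, had 2 probe sets on MOE430A. The brighter read 25808 and 24700.0, a log2 ratio of -0.063, and the other 11977 and 15297, 0.35. The name of the brighter marks it as shared between transcripts, and that of the other as one that may cross-hybridise. The ratios of the 2 differed by 0.41. Hopx is also expressed in the heart, and the 9 heart muscle markers were strong in both MOE430A arrays, with a summed signal of 268825 and 298687. Of these, 6 were higher and 3 lower, with Myl2, the ventricular myosin light chain, highest at 0.47 and Tnnt2, cardiac troponin T, next at 0.34. Ryr2, the cardiac calcium release channel, at -0.95 and Nppa, the atrial natriuretic peptide, at -0.70 were lowest. The heart's part in the Hopx signal was not tested. Rtkn2 had a single probe set on MOE430A at 322.8 and 333.3. It lay just above the floor of 284.5 and below the filter, so that Rtkn2 was not measurable at this brightness and is missing from the counts.

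**Figure D2:**
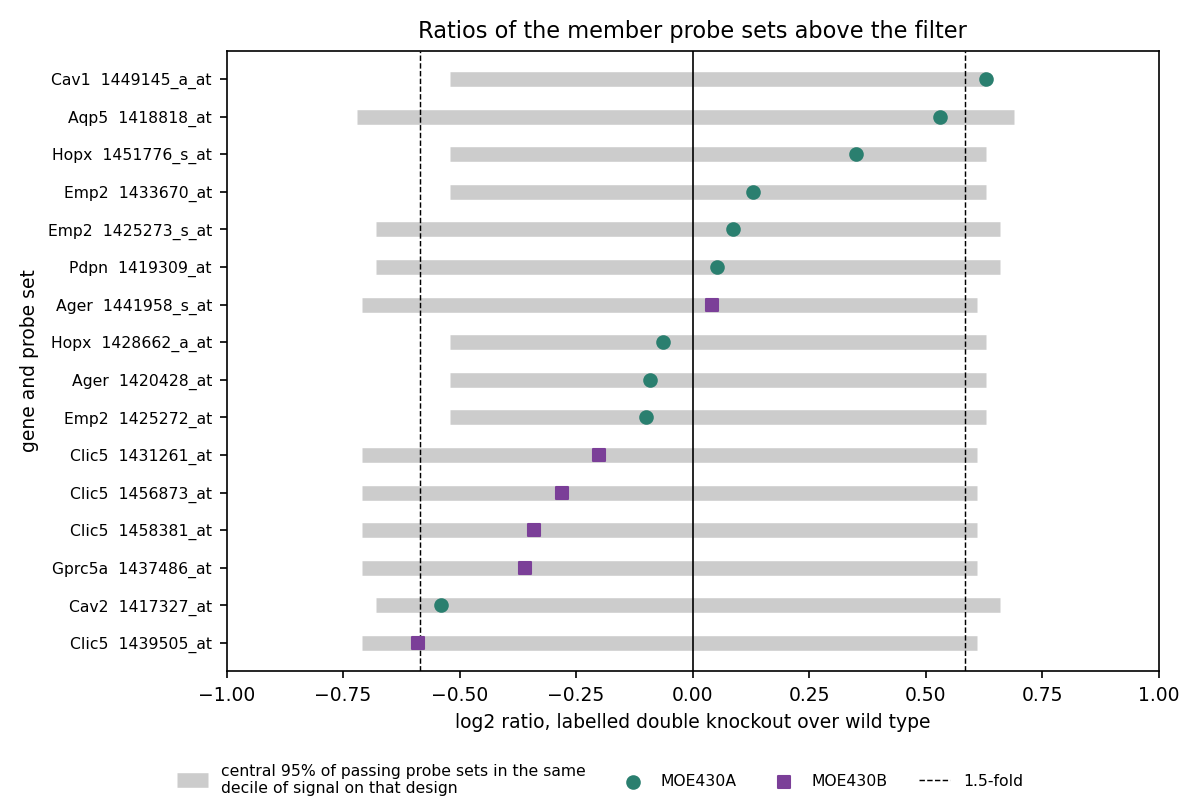
Log2 ratios of the 16 measured probe sets, ordered by size, over grey bars for the central 95% of measured probe sets of like signal on the same design. Cav1 at 0.63 lies at the edge of its bar, the other 15 lie inside, and the probe sets of Gprc5a and Clic5 on MOE430B are all below 0.

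Of the 10 measured probe sets on MOE430A, 6 had a ratio above 1, where 49.9% of that design did, while 5 of the 6 on MOE430B were below 1, where 49.9% were above. The count on MOE430A is close to that of its design, and 4 of the 5 on MOE430B belong to Clic5 alone. The 6 on MOE430B all lay in its brightest decile. The median log2 ratio there was -0.11, so most probe sets of like signal were also below 1. On MOE430A, the decile of signal that held Cav1, Hopx and Ager had a median of 0.078. By gene, the 7 read on MOE430A had a median of 0.053 and the 2 read on MOE430B -0.32. For the probe sets that the designs share, the mean difference of the log2 ratios, MOE430B minus MOE430A, was -0.22. The part of this offset in the lower values of Clic5 and Gprc5a was not tested.

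A further list held 25 other genes of type I cells, of which 23 were measured. Of these, 14 were higher and 9 lower, 1 at least 1.5-fold in each direction, with a median of 0.029. Cldn18, the tight junction claudin of the alveolar epithelium, was highest at 0.76 (6633 and 11205) and had 0.75 by its second probe set. Limch1 followed at 0.45, with -0.36 to 0.89 over 3 probe sets. Col4a4, a chain of the alveolar basement membrane collagen, was lowest at -0.70 on MOE430B, though its other probe set read -0.13. Icam1, an adhesion molecule enriched on type I cells, had -0.49 (2582 and 1840.1). The wider list was thus centred as close to all genes as the 10 markers were.

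Regulators of type I fate had a median of 0.05 over 11 of 12 genes, with 6 higher, 1 of them at least 1.5-fold, and 5 lower. Nkx2-1, the lung lineage factor, had the highest ratio at 0.73 from signals of 735.0 and 1218, the lower of which was below the filter. Cebpa, a factor of type II cell maturation, followed at 0.51. Hdac2, a histone deacetylase, had -0.40, with all 3 probe sets between -0.81 and -0.40, and Grhl2, an epithelial factor, -0.18. Yap1 and Wwtr1, which encodes TAZ, are outside the rule for naming and are added after their values were seen. They read 0.10 and -0.013.

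Relatives of the type I genes in the same families gave a median of -0.011 over 10 of 14 genes, 5 higher and 5 lower. Rtkn, the relative of Rtkn2, was at least 1.5-fold higher at 0.84 (651.4 and 1164), though its wild type signal was below the filter, and Gprc5c had 0.38. Emp3 was lowest at -0.42 and Clic6 had -0.24. The other measured aquaporins, named here after their values were seen, were Aqp1, the water channel of lung endothelium, at -0.085 and Aqp4 at 0.061, both below the 0.53 of Aqp5. Of 7 proteins known to bind the Ager receptor or related to such ligands, 4 were measured, 1 higher and 3 lower, with a median of -0.26. The neutrophil proteins S100a8 (2557 and 1402) and S100a9 (1860.5 and 1296) had -0.87 and -0.52, while S100a1 had 0.34 and S100a6 -0.0034.

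Against these, type II cell markers were higher in 12 of 13 measured genes, where 49.3% of all genes were. With 1 probe set per gene, 0 of them was at least 1.5-fold higher, against 9.37% of genes. Their median was 0.29 and their summed signal 215383 and 289549. All 13 were read on MOE430A, where the 7 type I genes had a median of 0.053 and a summed signal of 86192 and 94366. The direction of that sum rested on Cav1, whose own rise, from 18939.6 to 29276, was larger than that of the sum. Abca3, the lipid transporter of lamellar bodies, was highest at 0.56, with 0.11 by its other probe set. Sftpc, surfactant protein C, was next at 0.53, with 1.98 by its other probe set. Napsa and Lpcat1, named after their values were seen, also spread widely. They ran from 0.29 to 1.97 over 2 probe sets and from -0.72 to 2.93 over 5. Etv5 at -0.01 and Fasn at 0.023 were lowest. Markers shared by all epithelium had a median of 0.039 over 8 genes, 4 higher and 4 lower, from -0.35 in Cdh1 and Krt18 through 0.17 in Cldn4 to 0.67 in Cldn7. Whether type I and type II genes differed in their response could not be tested with 1 array per genotype.

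The medians of the remaining marker lists lay between -3.11 and 1.40, with genes below the floor entered at their bound. The 8 fibroblast markers had a median of -0.37, 6 of 8 being lower and 3 lower by 1.5-fold or more. They ran from Lum at -1.03 and Col1a1 at -0.78 to Col1a2 at 0.22 and Tcf21 at 0.88. The other probe set of Col1a1 read 0.037. Among lymphatic markers Prox1 had -0.66, Mmrn1 -0.22, Reln -0.06 and Flt4 0.074, with -0.083 by its other probe set. Prox1 (1110.5 and 701.9) passed the filter only through the wild type array, so that its lower value was partly set by the filter. Among mesothelial markers Lrrn4 had -0.48, Upk3b -0.26, Upk1b 0.20 and Muc16 0.64. Upk1b ran from -1.44 to 0.20 over 4 probe sets. The lymphocyte and thymus list had a median of -3.11, with Cd3d, Cd3e, Cd3g and Rag1 below the floor in the array labelled double knockout. Rag1 was at least 11.6-fold lower and Ptprc, at 2874 and 308.0, had -3.22, while Cd8a had -2.43 and Cd3e a bound of -2.17. Cd8a ran from -2.70 to -0.30 over 5 probe sets. In the squamous list Krt13, also below the floor in wild type, was at least 3.92-fold higher by 1 probe set but had -0.57 by another, Ivl had 0.82 and Krt5 0.47.

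**Figure D3:**
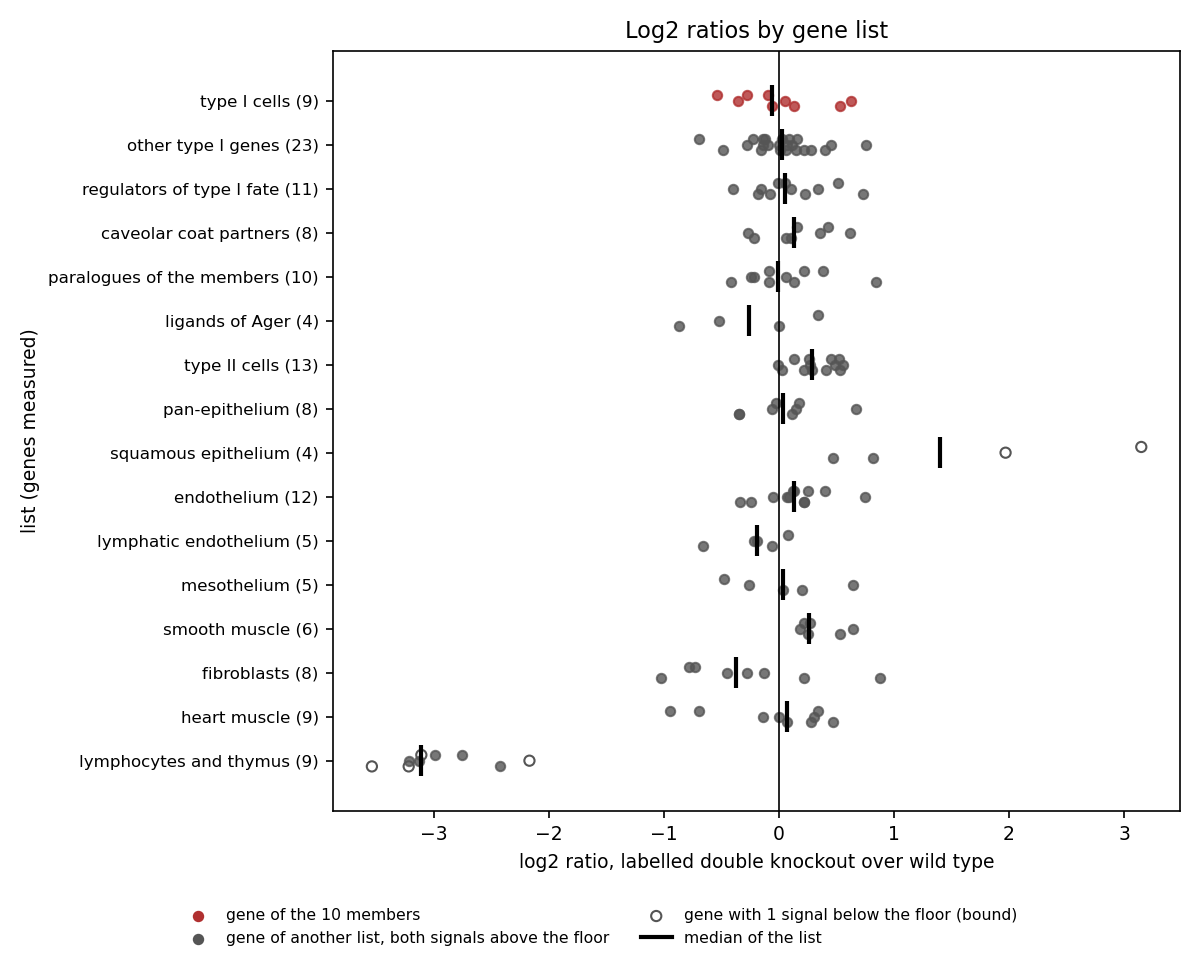
Log2 ratios of the measured genes of each list, 1 point per gene, with the median of the list as a bar and open circles where 1 signal was below the floor. The type I genes (red) run from -0.54 to 0.63 around a median of -0.063, while the lymphocyte and thymus list has a median of -3.11.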

How the data were processed

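The authors deposited 1 intensity per probe set for each of 4 arrays, on a linear scale. The submitters' processing notes name MAS5, with version and settings not given in the sources used here. The 2% trimmed mean of every array was 1500, so each had been scaled on its own, which assumes equal total signal. MAS5 signals are noisy when dim, hence the filter and floor. The 64 control probe sets of each design were dropped. Groups came from the sample titles. Names came from the platform annotation at GEO, 20393 and 14674 with 1 gene, 691 and 245 with several and 1606 and 7656 with none on MOE430A and MOE430B. Entrez identifiers of 20364 and 14499 were matched to RefSeq, and no symbol changed. Probe sets measured numbered 12181 and 12865.

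A gene was read by its brightest measured probe set on MOE430A, or on MOE430B where MOE430A had none. Probe sets whose names carry a letter such as a or s before the ending were grouped as ones that may cross-hybridise. The letter a marks only transcripts of the same gene, so this group is wider than its name. Genes named are all 10 type I markers, the targeted genes and, from every other list, the 2 highest and 2 lowest ratios. Xist, Cd3d and Cd3g were added after their values were seen, and other additions are named as such in the text. The type I genes and lists were chosen with earlier results of these data known. Ratios, counts at 1.5-fold and medians were computed in python 3.11.15 with pandas 2.3.3. The code was also run on simulated arrays with less noise than the data. Changes larger than those of the type I genes were planted there, in bright probe sets only. That run checked the code and could not show if ratios of the size reported here are recovered. Alternatives covered scaling, floor, filter, choice of probe set and design.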

Additional observations from a re-analysis of the deposited data

How the results depend on the processing

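Of the 9 measured type I genes, 0 was at least 1.5-fold lower under all 12 alternatives. Of all genes, 6.30% (MOE430A alone) to 14.0% (MOE430B alone) were. The median log2 ratio of the type I genes ran from -0.28 (MOE430B alone, 3 genes) to 0.053 (MOE430A alone, 7 genes). The number at least 1.5-fold higher was 1, Cav1. It was 0 with quantile normalization, with a loess curve removed, without probe sets grouped by name as ones that may cross-hybridise and on MOE430B alone. The last 2 settings left Cav1 without a value. Of all genes, 6.21% (MOE430A alone) to 14.3% (MOE430B alone) were at least 1.5-fold higher. With 3 to 10 type I genes, counts of 0 or 1 are close to such shares. The number with a ratio above 1 was 4 of 9. It was 5 of 9 with the brightest probe set over both designs or the median over probe sets, and 5 of 10 without a filter. It was 4 of 7 on MOE430A alone, 3 of 7 without the probe sets grouped by name and 1 of 3 on MOE430B alone. Of all genes, 45.9% (MOE430B alone) to 51.3% (MOE430A alone) had a ratio above 1. Ager and Hopx, near 0, changed side, reaching 0.042 and 0.14. The median of the other type I genes ran from -0.15 to 0.074. Each gene's ratio moved by less than 0.24, the SD of 1 ratio between the designs, under the alternatives that gave it a value. Rtkn2 had a value (0.067) only without a filter. No paired analysis was possible because each genotype had 1 array per design. Precision is limited by the number of arrays, and dim signals such as that of Rtkn2 limit what could be read.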
